A study of Homo sapiens with 8 samples.

Results

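Genes for ligands, receptors and binding proteins of transforming growth factor beta (TGF-beta) and activin were followed in parental and SMARCA4-knockout tumours. The 10 genes TGFB1, TGFB2, TGFB3, INHBA, INHBB, TGFBR1, TGFBR2, TGFBR3, FST and TGFBI were taken by symbol from the 59050 gene symbols of the count files. All 10 passed the filter on low counts. RNA was sequenced from xenograft tumours that H2122 cells, a human lung cancer line, formed in mice. One group was labelled WT and is called parental here (4 tumours), and the other carried a SMARCA4 knockout (4 tumours). All 8 had received vehicle only. SMARCA4 is a motor subunit of SWI/SNF, a family of complexes that move nucleosomes. The labels do not say whether the knockout cells are 1 clone, which mouse strain was used or whether tumours shared a cage or day. The p-values weigh the difference between the groups against the spread between tumours within a group, for these 8 samples only. Any effect of a clone, cage or day that goes with a group cannot be told apart from that of the knockout.

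TGF-beta and activin dimers are secreted and bind pairs of type I and type II receptor kinases at the cell surface. The receptors phosphorylate SMAD2 and SMAD3, which enter the nucleus with SMAD4 and change transcription. TGF-beta is stored in the matrix in a latent form and has to be released, whereas activin is secreted active and is neutralised by follistatin. In carcinomas the pathway is known for growth arrest in some cells and for matrix production and epithelial-mesenchymal transition in others.

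Gene counts per library ran from 19785922 to 23191698 in parental and from 20662882 to 21981123 in knockout tumours. SMARCA4 itself was at 198 to 235 CPM (read counts scaled to a common library size) in parental and 22.3 to 31.1 CPM in knockout tumours, and no library went against its label. Among 12 epithelial and lung adenocarcinoma markers, the summed level was 6979 to 7913 CPM in parental and 5333 to 6954 CPM in knockout tumours. The lung lineage factor gene NKX2-1 had 0 counts in all 8 libraries, and the surfactant gene SFTPB stayed at or under 0.374 CPM. Summed leukocyte markers (12 genes) were highest in parental replicates 2 and 3, at 108 and 91.0 CPM, against 14.0 and 20.6 CPM in the other parental tumours and 22.0 to 42.2 CPM in knockout tumours. Whether these reads come from the mouse host was not tested. Counts without those 2 libraries, an analysis added after the data were seen, are given beside the counts of each gene list.

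Across the 10 genes, the co-receptor gene TGFBR3, the activin subunit gene INHBA, the activin antagonist gene FST and the ligand gene TGFB3 rose in knockout tumours, and the activin subunit gene INHBB fell. The signalling receptor genes TGFBR1 and TGFBR2, the ligand genes TGFB1 and TGFB2 and the matrix gene TGFBI did not pass the test. A gene is called changed where edgeR's quasi-likelihood test, adjusted over all genes tested by the Benjamini-Hochberg method, gave an adjusted p under 0.05. By that rule 5 of 10 were changed, 4 higher and 1 lower, while 27.0% of the 16219 genes tested were changed, 13.0% higher and 14.1% lower. The groups did not overlap for 3 of the 10, all higher in knockout (TGFBR3, INHBA and FST), against 14.0% of all genes tested, and 0 were wholly lower, against 15.3%. The median log2 fold change was -0.01 over the 10 genes and 0.00 over all genes tested. TGFB3 and INHBB lay close to the threshold, and without parental replicate 1, or without any 1 of the 4 knockout tumours, neither was called, which left 3 changed genes. In bulk tumours, fewer cells of a type and less RNA per cell cannot be told apart.

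**Figure D1:**
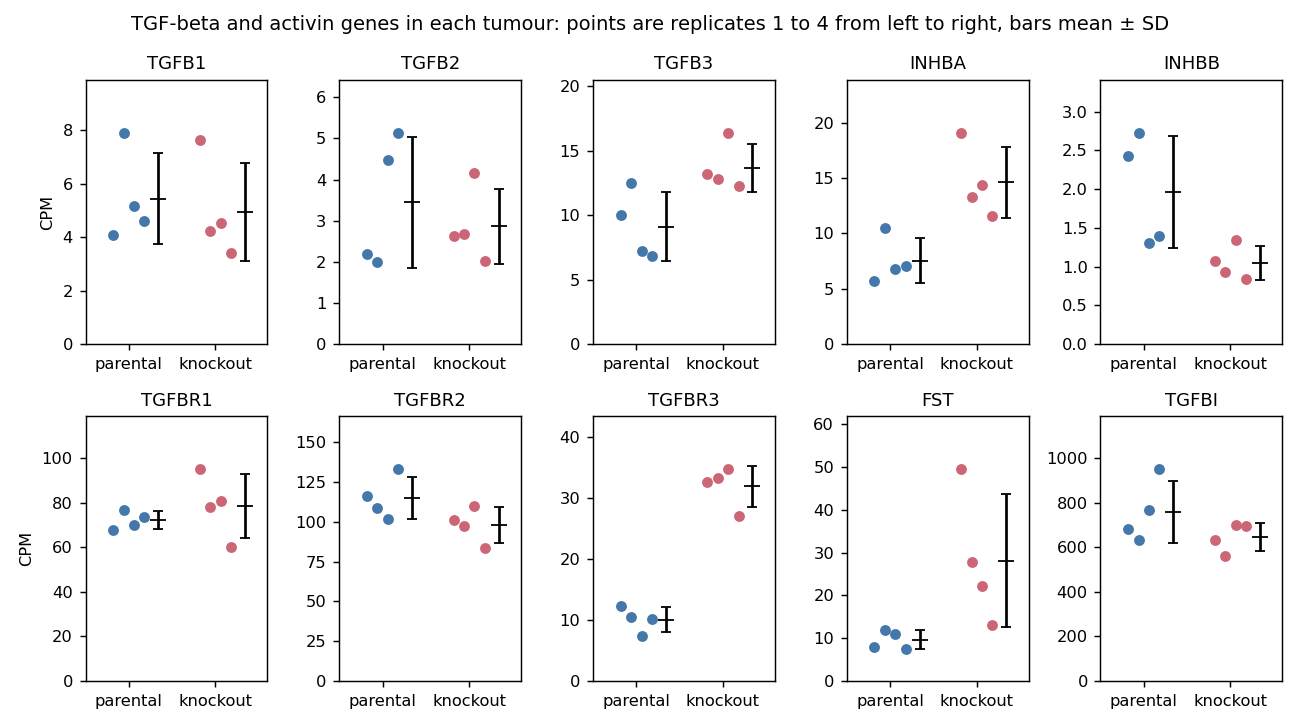
CPM (vertical axes, each from 0) of the 10 genes in 4 parental (blue) and 4 knockout (red) tumours, with the mean and SD in black. TGFBR3 lay at 7.32 to 12.3 CPM in parental and 27.0 to 34.7 CPM in knockout tumours, while TGFB1, TGFB2, TGFBR1, TGFBR2 and TGFBI overlapped between the groups.

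The TGF-beta ligand genes were low in both groups, and TGFB3 was the one that rose. TGFB3 (ENSG00000119699, chromosome 14, 75958099 to 75982991, minus strand) encodes the TGF-beta isoform known for its part in palate formation. It was at 9.99, 12.5, 7.19 and 6.80 CPM in parental replicates 1 to 4 and at 13.2, 12.8, 16.4 and 12.3 CPM in knockout replicates 1 to 4. Parental replicate 2 reached into the knockout range, and the other 3 parental tumours lay below every knockout tumour. Means were 9.11 ± 2.64 CPM for parental and 13.7 ± 1.85 CPM for knockout (SD, n = 4 per group). The log2 fold change came to 0.59 with an SE of 0.193 (edgeR adjusted p = 0.0423). Over the fits that left out 1 tumour the log2 fold change ran from 0.47 to 0.78 and the edgeR adjusted p from 0.00600 to 0.122. Without parental replicate 2 alone the call was kept (0.78, edgeR adjusted p = 0.00600), and without any other single tumour it was lost. Its annotated antisense partner TGFB3-AS1 had 2 counts over all 8 libraries.

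TGFB1 (ENSG00000105329, chromosome 19, 41301587 to 41353911, minus strand) encodes the isoform most widely produced by blood and stromal cells. It was at 4.09, 7.91, 5.18 and 4.59 CPM in parental and 7.62, 4.24, 4.53 and 3.41 CPM in knockout tumours. The highest parental value, in replicate 2, and the highest knockout value, in replicate 1, were alike, and the other 6 tumours lay between 3.41 and 5.18 CPM. Its log2 fold change was -0.14, with an SE of 0.273 (edgeR adjusted p = 0.756), and it changed sign to 0.10 without parental replicate 2 and 0.01 without knockout replicate 4. Leaving out parental replicates 2 and 3 together gave 0.18 (edgeR adjusted p = 0.676). Exons of TGFB1 overlap those of HNRNPUL1 on the opposite strand in the annotation, HNRNPUL1 had 7990 to 11310 counts per library against 73 to 163 for TGFB1, and whether the counting used strand is not given in the sources used here, so the TGFB1 level is uncertain.

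TGFB2 (ENSG00000092969, chromosome 1, 218346235 to 218444619, plus strand) encodes the isoform that depends most on TGFBR3 to reach its signalling receptors. It was at 2.18, 2.0, 4.47 and 5.14 CPM in parental and 2.62, 2.68, 4.15 and 2.01 CPM in knockout tumours. The parental tumours fell into a low and a high pair. Knockout replicate 4 lay within the low pair, and the other knockout tumours lay between the pairs, with replicate 3 close to the high pair. The log2 fold change was -0.27, with an SE of 0.335 (edgeR adjusted p = 0.590), an error wide enough that a change of this size in either direction was not detectable. Relative to exon length, TGFB3 made up 43.9% ± 8.71 of the summed level of the TGF-beta ligand genes in parental tumours and 57.7% ± 6.50 in the knockout group (SD, n = 4 per group). TGFB1 made up 39.4% ± 4.94 and 31.0% ± 7.85, and TGFB2 16.7% ± 8.91 and 11.3% ± 2.40, in the same order. The TGFB3 shares overlapped between the groups, with parental replicate 1 at 54.7% and knockout replicate 1 at 48.4%. Because the sum includes TGFB1, these shares carry the uncertainty of the TGFB1 level.

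The pair of activin beta subunit genes moved in opposite directions. INHBA (ENSG00000122641, chromosome 7, 41667168 to 41705834, minus strand) encodes the subunit of activin A, and INHBB (ENSG00000163083, chromosome 2, 120346143 to 120351808, plus strand) that of activin B. INHBA was at 5.75, 10.5, 6.83 and 7.10 CPM in parental and at 19.1, 13.3, 14.4 and 11.6 CPM in knockout tumours. All 4 knockout values lay above all 4 parental values, with parental replicate 2 and knockout replicate 4 the nearest. Means were 7.56 ± 2.08 CPM for parental and 14.6 ± 3.23 CPM for knockout (SD, n = 4 per group). Its log2 fold change came to 0.95 with an SE of 0.205 (edgeR adjusted p = 0.00541), or 1.93-fold. The call held in each of the 17 alternative analyses, with log2 fold changes of 0.79 to 1.17. Parental replicate 2, which had the highest INHBA of its group, also had the highest summed fibroblast markers (615 CPM, against 185 to 355 in the other parental tumours). Knockout tumours had 349 to 613 CPM of the same 12 markers, most of it COL1A1, which did not pass the test. LUM, the gene of the matrix proteoglycan lumican, was the 1 of 8 tested fibroblast markers that changed, from 0.374 ± 0.236 to 12.4 ± 2.50 CPM (SD, n = 4 each; log2 fold change 5.00, edgeR adjusted p = 1.98e-06), with no overlap between the groups. The markers THY1 and PDGFRA were at or under 0.146 CPM in every tumour. The part of these markers in the INHBA result was not tested.

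INHBB was at 2.43, 2.73, 1.30 and 1.40 CPM in parental and at 1.07, 0.926, 1.35 and 0.840 CPM in knockout tumours. Knockout replicate 3 lay between the lower pair of parental tumours, and the other knockout tumours lay below all parental tumours. Means were 1.97 ± 0.725 CPM for parental and 1.05 ± 0.225 CPM for knockout (SD, n = 4 per group). The log2 fold change came to -0.90 with an SE of 0.303 (edgeR adjusted p = 0.0484). These values rest on 165 parental and 89 knockout counts in all. The call was lost in 10 of 17 alternative analyses, among them limma-voom (adjusted p = 0.0714), upper-quartile scaling (edgeR adjusted p = 0.0555) and the fit without parental replicate 2 (-0.69, edgeR adjusted p = 0.114). In raw counts, 2.36 to 5.28 INHBA reads were counted per INHBB read in parental tumours and 10.6 to 17.8 in knockout tumours, a ratio within each library that no scaling enters.

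The sequences before the RefSeq starts of the subunit genes are shown because these paralogs moved in opposite directions. INHBA is shown at chr7:41703109-41703340 (minus strand) and INHBB at chr2:120345886-120346135 (plus strand) of GRCh38.p14, each 5′ to 3′. The INHBA start in RefSeq lies inside the gene as GENCODE 29 draws it, so this stretch is not the one before the outermost annotated start. Capitals mark matches to TGANGTCA (a cyclic AMP response element and close variants) or to GGGCGG (the GC box bound by SP1), on either strand.
INHBA: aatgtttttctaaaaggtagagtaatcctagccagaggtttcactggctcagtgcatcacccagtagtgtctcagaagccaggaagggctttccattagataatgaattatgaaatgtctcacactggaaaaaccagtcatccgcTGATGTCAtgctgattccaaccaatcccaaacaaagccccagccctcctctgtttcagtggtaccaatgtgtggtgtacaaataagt
INHBB: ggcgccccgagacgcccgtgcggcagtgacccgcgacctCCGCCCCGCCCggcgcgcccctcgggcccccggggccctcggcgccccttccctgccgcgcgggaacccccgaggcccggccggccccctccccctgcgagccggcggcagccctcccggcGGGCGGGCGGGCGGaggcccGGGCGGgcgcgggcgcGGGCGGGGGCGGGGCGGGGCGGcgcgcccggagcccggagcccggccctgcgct
Within 250 bases before the start, G and C made up 42.8% of the INHBA window and 89.6% of the INHBB window, against a median of 58.0% over 35116 RefSeq windows of this length. INHBA held 1 match to TGANGTCA, TGATGTCA, and none to GGGCGG. INHBB held 10 matches to GGGCGG, some overlapping one another, and none to TGANGTCA. Of all windows, 6.87% held TGANGTCA and 42.6% held GGGCGG. Neither window held TGANTCA (AP-1, in 6.57% of windows), CAGAC (a SMAD element, in 38.0%) or GGAATG (TEAD, in 11.9%). A match is a description of the letters, and the last 18 bases of the INHBA window are exon in GENCODE 29 and are not shown.

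FST encodes follistatin, which binds activin and blocks its access to receptors. FST (ENSG00000134363, chromosome 5, 53480409 to 53487134, plus strand) was at 7.87, 12.0, 11 and 7.53 CPM in parental and at 49.5, 27.9, 22.2 and 13.0 CPM in knockout tumours. The knockout tumours spread over a wide range, with replicate 1 far above and replicate 4 just above the highest parental tumour. Means were 9.60 ± 2.23 CPM for parental and 28.2 ± 15.5 CPM for knockout (SD, n = 4 per group). Its log2 fold change came to 1.55 with an SE of 0.338 (edgeR adjusted p = 0.00564), or 2.93-fold. Without knockout replicate 1 the log2 fold change was 1.14 (edgeR adjusted p = 0.0101), and without knockout replicate 4 it was 1.79. Both INHBA and FST rose, and INHBA reads per FST read ran from 0.619 to 0.944 in parental and from 0.386 to 0.889 in knockout tumours, ranges that overlap. The order of the knockout tumours differed between the genes: replicate 3 was above replicate 2 for INHBA and below it for FST.

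The receptor genes divided between an accessory receptor that rose and signalling receptors that did not pass the test. TGFBR3 (ENSG00000069702, chromosome 1, 91680343 to 91906335, minus strand) encodes betaglycan, a membrane proteoglycan that presents TGF-beta to the signalling receptors, binds inhibin and can be shed as a soluble form. It was at 12.3, 10.4, 7.32 and 10.1 CPM in parental and at 32.7, 33.2, 34.7 and 27.0 CPM in knockout tumours. The groups lay far apart, with the lowest knockout tumour over 2 times the highest parental one. Means were 10.0 ± 2.04 CPM for parental and 31.9 ± 3.35 CPM for knockout (SD, n = 4 per group). The log2 fold change came to 1.67 with an SE of 0.150 (edgeR adjusted p = 1.61e-05), or 3.18-fold. TGFBR3 had the smallest p of the 10 genes, and over 17 alternative analyses its log2 fold change ran from 1.5 to 1.77 with no lost call. Gene counts do not tell the membrane form from shorter transcripts.

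The stretch before the RefSeq start of TGFBR3 is shown as that of the gene with the smallest p. It lies at chr1:91886280-91886401 (minus strand, GRCh38.p14), inside the gene as GENCODE 29 draws it. The next 128 bases before the start are exon there and are not shown.
TGFBR3: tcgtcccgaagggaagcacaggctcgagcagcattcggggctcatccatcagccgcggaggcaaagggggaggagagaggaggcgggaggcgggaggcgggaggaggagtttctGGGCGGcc
Capitals mark the GGGCGG match, and the 250-base window, at 73.6% G and C, held 2 such matches and none to the other motifs searched.

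TGFBR2 (ENSG00000163513, chromosome 3, 30606502 to 30694142, plus strand) encodes the type II receptor, which binds the ligand and activates the type I receptor. It was at 116, 109, 102 and 133 CPM in parental and at 101, 97.6, 110 and 83.4 CPM in knockout tumours. The groups overlapped, with knockout replicate 3 above parental replicates 2 and 3. Its log2 fold change was -0.23, with an SE of 0.108 (edgeR adjusted p = 0.137). Without parental replicates 2 and 3 it was -0.36 (edgeR adjusted p = 0.0482), a call, so that 5 genes were again called there, with TGFBR2 in and INHBB out (-0.86, edgeR adjusted p = 0.0649). TGFBR1 (ENSG00000106799, chromosome 9, 99104038 to 99154192, plus strand) encodes the type I receptor, the kinase that phosphorylates SMAD2 and SMAD3. It was at 67.8, 76.9, 70 and 73.6 CPM in parental and at 95.0, 78.3, 81.0 and 60.2 CPM in knockout tumours. Knockout tumours lay both above and below the parental range, and the log2 fold change was 0.13, with an SE of 0.123 (edgeR adjusted p = 0.495). Per TGFBR2 read, 0.0717 to 0.106 TGFBR3 reads were counted in parental and 0.316 to 0.340 in knockout tumours, so the 4 knockout tumours lay close together on this ratio.

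TGFBI (ENSG00000120708, chromosome 5, 136028895 to 136063818, plus strand) encodes a secreted matrix protein first found as a transcript that TGF-beta raises in a lung adenocarcinoma line. It was at 683, 632, 766 and 949 CPM in parental and at 630, 560, 698 and 694 CPM in knockout tumours. The parental tumours spread more widely and the groups overlapped. The log2 fold change was -0.23, with an SE of 0.130 (edgeR adjusted p = 0.220), and it was negative in all 17 alternative analyses, from -0.35 to -0.11, with no call.

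**Figure D2:**
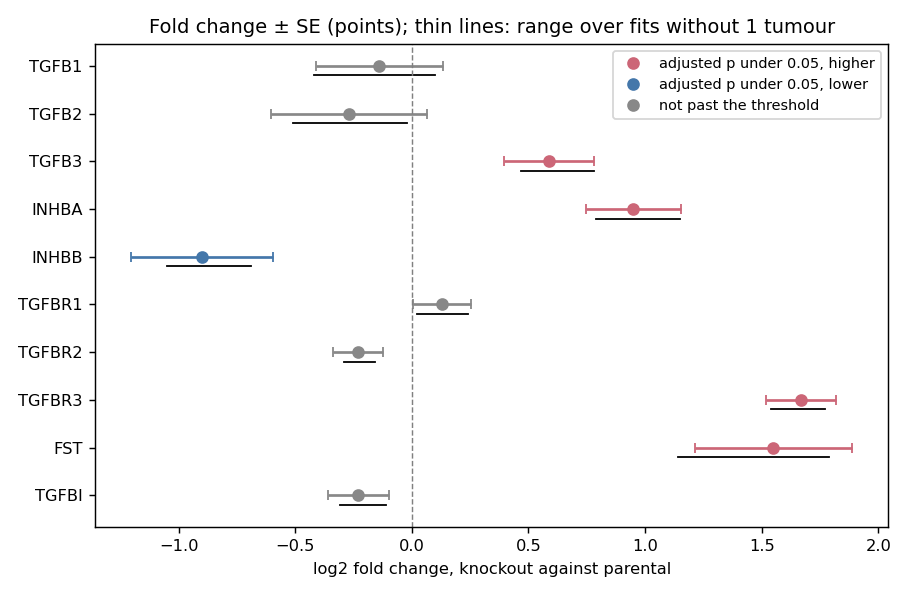
Log2 fold change of knockout against parental tumours (horizontal axis) for the 10 genes, as points with SE, and thin lines for the range over 8 fits that each left out 1 tumour. TGFBR3, FST, INHBA and TGFB3 (red) were called higher and INHBB (blue) lower, and the line of TGFB1 runs from -0.42 to 0.10 across 0.

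Levels were compared between genes after division by exon length. In parental tumours TGFBI was highest at 97.0 ± 17.8 CPM per kb, then TGFBR2 at 24.5 ± 2.82 and TGFBR1 at 10.5 ± 0.589 CPM per kb (SD, n = 4 each), and none of their ranges overlapped. FST followed at 3.23 ± 0.751 CPM per kb, with its lowest tumour level with the highest of TGFB3. TGFB3 (1.85 ± 0.538), TGFB1 (1.68 ± 0.526) and TGFBR3 (1.15 ± 0.235 CPM per kb) each overlapped the next in order. INHBA (0.910 ± 0.250), TGFB2 (0.669 ± 0.310) and INHBB (0.614 ± 0.226 CPM per kb) closed the order and overlapped one another. In knockout tumours TGFBR3 stood at 3.66 ± 0.384 and TGFB3 at 2.78 ± 0.376 CPM per kb, the reverse of their parental order, with ranges of 3.11 to 3.98 and 2.50 to 3.33 that overlapped. FST reached 9.49 ± 5.21 CPM per kb there, with a range of 4.39 to 16.7 that overlapped that of TGFBR1 (8.79 to 13.9). The union of annotated exons overstates the length of the transcripts in use where a gene has several forms, so small differences in order carry little weight.

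**Figure D3:**
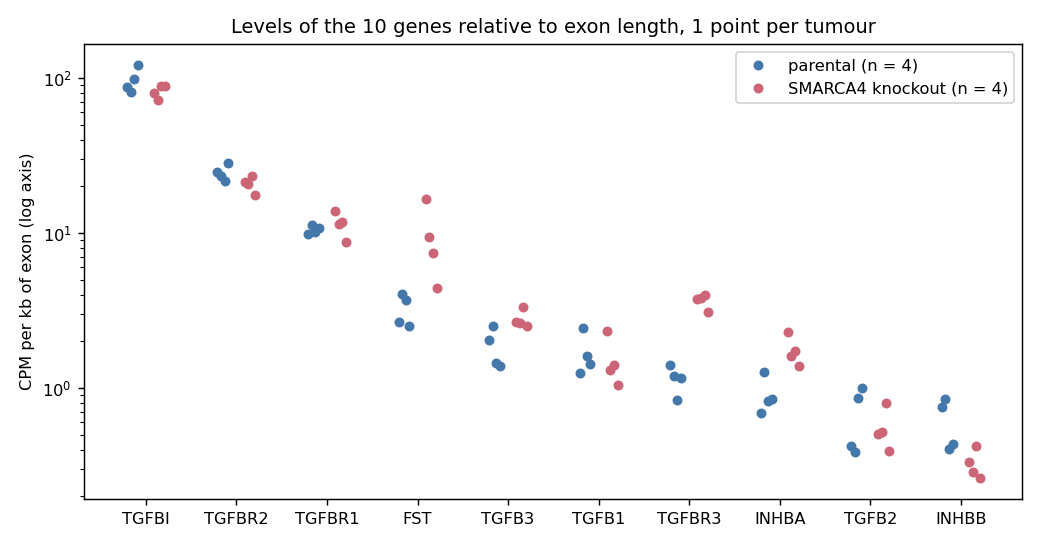
CPM per kb of exon (vertical log axis) of the 10 genes in order of their parental mean, with 1 point per tumour. TGFBI, TGFBR2 and TGFBR1 lay above the ligand and activin genes in parental tumours, and FST, TGFBR3 and INHBA stood higher in knockout tumours.

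Most further ligand genes of the superfamily were too low to test, and those that changed fell. Of 13 listed, 4 passed the filter, and 3 of the 4 fell (75.0%, against 14.1% of all genes tested). The median log2 fold change of the 4 was -1.24. GDF15, a stress-induced cytokine gene, fell from 49.9 ± 17.4 to 15.8 ± 2.21 CPM (SD, n = 4 each; log2 fold change -1.66, SE 0.230, edgeR adjusted p = 0.000300). GDF11, a close relative of myostatin, fell from 3.80 ± 0.289 to 1.57 ± 0.135 CPM (log2 fold change -1.27, edgeR adjusted p = 0.000281). INHA encodes the inhibin alpha subunit, which pairs with the activin subunits to form inhibins. It was at 12.3, 21.7, 10.7 and 3.74 CPM in parental and 6.45, 5.66, 4.48 and 4.39 CPM in knockout tumours (log2 fold change -1.20, edgeR adjusted p = 0.0446). Parental replicate 4 was the lowest of all 8 for INHA, and without parental replicate 2 the log2 fold change was -0.76 (edgeR adjusted p = 0.112). Leaving out parental replicates 2 and 3 together gave -0.60 (edgeR adjusted p = 0.242), which left 2 called falls in this list.

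Receptors and co-receptors other than the 10 genes moved in both directions. Of 14 listed, 12 were tested, 2 rose and 4 fell, where 13.0% of all genes tested rose and 14.1% fell. The median log2 fold change was -0.17. BAMBI, a decoy receptor that lacks the kinase, rose from 26.9 ± 2.73 to 60.3 ± 8.13 CPM (SD, n = 4 each; log2 fold change 1.16, SE 0.118, edgeR adjusted p = 3.48e-05). NRP1, a neuropilin that can also bind TGF-beta, rose by less (log2 fold change 0.42, edgeR adjusted p = 0.0186) and lost the call without parental replicate 1 or knockout replicate 2 or 3. The activin type II receptor gene ACVR2A fell from 12.1 ± 1.88 to 7.87 ± 0.191 CPM (log2 fold change -0.62, edgeR adjusted p = 0.00518). ACVR1, a type I receptor gene, and FKBP1A, whose product holds type I receptors inactive, had log2 fold changes of -0.43 and -0.37 (edgeR adjusted p = 0.00935 and 0.0126). The other fall was ACVR1B, the main activin type I receptor gene (-0.38, edgeR adjusted p = 0.0141), named after its value was seen. Without parental replicates 2 and 3, 5 of these genes were called, 2 higher and 3 lower, and ACVR1B was not among them. The other activin type II receptor gene, ACVR2B, did not pass the test (0.19, edgeR adjusted p = 0.239) and was chosen in the same way.

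Genes for latency, activation and extracellular binding held 7 that rose and 4 that fell among 20 tested of 23 listed, with a median log2 fold change of 0.28. That was 55.0% changed, against 27.0% of all genes tested (13.0% higher and 14.1% lower). LTBP4, which anchors latent TGF-beta in the matrix, rose from 49.1 ± 6.14 to 138 ± 10.3 CPM (SD, n = 4 each; log2 fold change 1.49, SE 0.105, edgeR adjusted p = 3.19e-06). LRRC32, which holds latent TGF-beta on the cell surface, had 9 counts over the parental and 102 over the knockout libraries (fitted log2 fold change 3.44, SE 0.480, edgeR adjusted p = 0.000321). THBS1, a thrombospondin that can activate latent TGF-beta, rose from 133 ± 22.1 to 261 ± 43.4 CPM (log2 fold change 0.97, edgeR adjusted p = 0.000473). LTBP3, another latency protein gene, fell from 51.6 ± 7.07 to 33.0 ± 2.12 CPM (log2 fold change -0.64, edgeR adjusted p = 0.000990). The protease gene HTRA1 and the integrin gene ITGB8, whose product activates latent TGF-beta, had log2 fold changes of -0.60 and -0.62 (edgeR adjusted p = 0.00303 and 0.0129). FSTL3, a relative of follistatin that also binds activin, rose beside FST (0.68, edgeR adjusted p = 0.00399), and was named after its value was seen. ITGB6, another activating integrin gene, did not pass the test (-0.17, edgeR adjusted p = 0.458) and was chosen in the same way. Without parental replicates 2 and 3, 9 of these genes were called, 7 higher and 2 lower, and ITGB8 was no longer one of them (-0.55, edgeR adjusted p = 0.0556).

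Among the SMADs and other transducers, the called changes were all falls. Of 27 tested among 28 listed, 5 fell (18.5%, against 14.1% of all genes tested) and 0 rose by the edgeR test (against 13.0%). The share of falls was thus near that of all genes. Counting both directions, 18.5% were changed, fewer than the 27.0% of all genes tested. The median log2 fold change was -0.09. The groups did not overlap for 7 of the 27, all 7 lower in knockout. Of all genes tested, 15.3% were wholly lower and 14.0% wholly higher. Without parental replicates 2 and 3 the called count was again 5 lower and 0 higher. DESeq2 and limma-voom also called 0 higher, and 0 rose at an unadjusted edgeR p under 0.05. TGIF2 and SKI, which encode corepressors of SMAD-driven transcription, fell from 30.0 ± 2.78 to 17.4 ± 1.51 CPM and from 101 ± 5.08 to 67.6 ± 8.93 CPM (SD, n = 4 each). Their log2 fold changes were -0.79 and -0.58 (edgeR adjusted p = 0.000213 and 0.00148). TAB2, an adaptor of the kinase TAK1, had a log2 fold change of -0.36 (edgeR adjusted p = 0.0106). SMAD2 (0.20), SMAD3 (-0.19) and SMAD4 (-0.02) did not pass the test, with edgeR adjusted p of 0.206, 0.364 and 0.916, and they too were named after their values were seen.

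Transcripts known to be raised by TGF-beta or activin went both ways, with more called rises than called falls. Of 47 tested among 50 listed, 17 rose and 5 fell, where 13.0% of all genes tested rose and 14.1% fell. That was 46.8% changed, against 27.0% of all genes tested, and the median log2 fold change was 0.24. Without parental replicates 2 and 3, 19 rose and 5 fell. The list includes genes that many other signals also drive, and 8 of its genes stand in the lists above as well. TGM2, a transglutaminase that crosslinks matrix, rose from 786 ± 44.6 to 1804 ± 253 CPM (SD, n = 4 each; log2 fold change 1.20, SE 0.108, edgeR adjusted p = 1.61e-05). ZEB1, a transcription factor of epithelial-mesenchymal transition, rose from 2.41 ± 0.771 to 8.19 ± 0.649 CPM (log2 fold change 1.77, edgeR adjusted p = 0.000138), and BAMBI, described above, is also in this list. SNAI2, another such factor, fell from 10.9 ± 3.17 to 2.31 ± 0.417 CPM (log2 fold change -2.24, edgeR adjusted p = 3.43e-05). HMGA2, an architectural chromatin protein gene, fell from 5.68 ± 0.595 to 1.44 ± 0.231 CPM (log2 fold change -1.97, edgeR adjusted p = 1.95e-05). KLF10, an early TGF-beta response gene, had a log2 fold change of -0.76 (edgeR adjusted p = 0.000167).

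Direct feedback targets, and CCN2 from the same target list, were looked at after their values were seen. SMAD7, the inhibitory SMAD gene, was at 30.6 ± 2.71 CPM in the parental and 31.1 ± 7.83 CPM in the knockout group (SD, n = 4 each; log2 fold change 0.02, edgeR adjusted p = 0.941). PMEPA1, another feedback inhibitor gene, was at 636 ± 50.4 and 682 ± 168 CPM (log2 fold change 0.10, edgeR adjusted p = 0.676). SKIL had a log2 fold change of -0.24 (edgeR adjusted p = 0.264). CCN2, a matricellular protein gene, fell from 30.6 ± 7.74 to 15.9 ± 2.73 CPM (log2 fold change -0.95, edgeR adjusted p = 0.00293). The target genes therefore held both called rises and called falls beside feedback genes that did not pass the test.

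**Figure D4:**
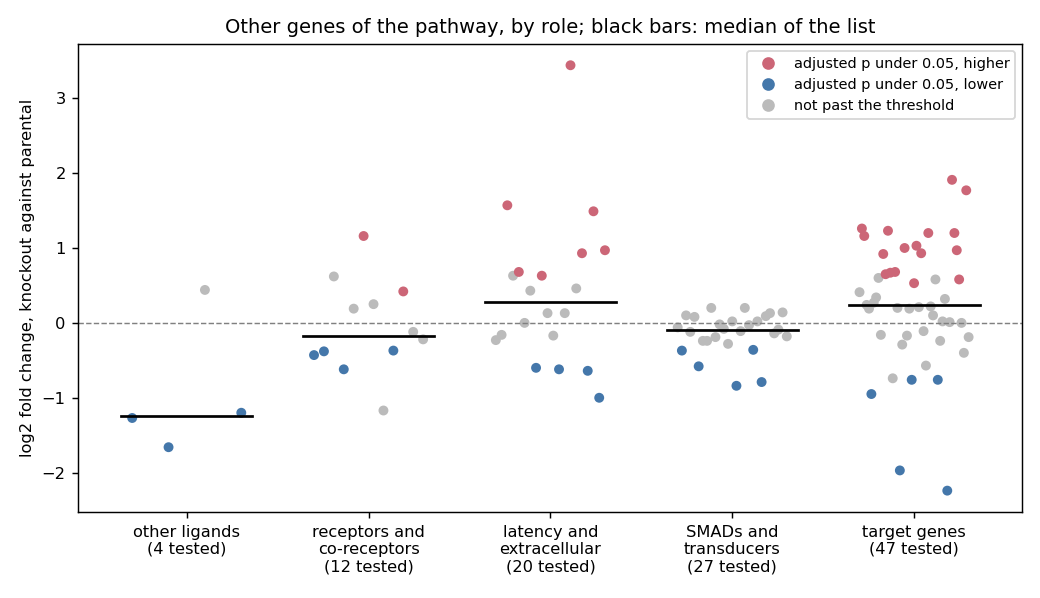
Log2 fold change of knockout against parental tumours (vertical axis) for the tested genes of 5 lists, ordered alphabetically within a list, with called rises in red, called falls in blue and the list median as a black bar. The 4 tested further ligands include 3 falls, and the target list holds 17 rises and 5 falls. Of all genes tested, 13.0% were called higher and 14.1% lower.

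Counted once each, the genes of the 5 lists numbered 120, of which 102 were tested and 43 changed, 22 higher and 21 lower (42.2%, against 27.0% of all genes tested). Without parental replicates 2 and 3, 41 were called, 24 higher and 17 lower. Platelets carry TGF-beta, and the summed level of 8 platelet markers was 0.680 to 2.20 CPM in parental and 13.5 to 25.3 CPM in knockout tumours, most of it PPBP. Both tested platelet markers rose, PPBP from 1.18 ± 0.608 to 18.6 ± 6.18 CPM and ITGA2B from 0.298 ± 0.0971 to 0.907 ± 0.335 CPM (SD, n = 4 each; edgeR adjusted p = 1.95e-05 and 0.00676), and neither overlapped between the groups. The defining markers PF4 and GP9 were at or under 0.0488 CPM. Summed endothelial markers (10 genes) were at 7.61 to 18.8 and 9.67 to 15.8 CPM, and summed skeletal muscle markers (10 genes) at 0.570 to 35.1 and 0.420 to 16.5 CPM, in the same order. Most of the endothelial sum was PECAM1, which did not pass the test. VWF, the von Willebrand factor gene, fell from 1.97 ± 0.806 to 0.378 ± 0.0709 CPM (log2 fold change -2.37, edgeR adjusted p = 0.000410) with no overlap. CDH5 had 36 counts over the parental libraries, 26 of them in replicate 3, and 0 over the knockout libraries. The other endothelial markers too low to test differed in direction between parental and knockout totals. KDR had 38 and 9 counts, TIE1 15 and 30, TEK 28 and 24, and ESAM 31 and 28. CLDN5, EMCN and ROBO4 had 5 or fewer in each group. The part of these markers in the results was not tested.

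The genes most like TGFBR3 were sought, by the root mean square difference between centred log2 CPM profiles over the 8 tumours, in the 13044 genes whose mean log2 CPM reached 1. NALCN, a sodium leak channel gene, was closest (difference 0.120), followed by RSPO3, a secreted activator of Wnt signalling (0.138), and P4HA3, a collagen prolyl hydroxylase subunit gene (0.145). Their fitted log2 fold changes were 2.27, 1.64 and 2.04, against 1.67 for TGFBR3. The profiles add 0.5 CPM before the log, which shrinks differences in low genes. NALCN was at 0.491 to 1.14 CPM in parental tumours, so its first rank leans on that addition. RSPO3 was at 35.4 to 51.0 CPM in parental and 129 to 155 CPM in knockout tumours. Each has its lowest parental value in replicate 3, as TGFBR3 does, a likeness that the choice by profile over the same tumours favours.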

How the data were processed

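RNA sequencing counts were analysed for 8 H2122 xenograft tumours, 4 parental and 4 SMARCA4 knockout, grouped by genotype label with replicate numbers from titles. Each deposited file lists unnormalized read counts by gene symbol, and its 5 htseq-count summary lines were left out. TopHat2 2.1.1, HTSeq 0.11.0 and hg38 are named in the submitters' processing notes, per the labels. The annotation, strand setting and any step separating mouse from human reads are not given in the sources used here.

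Genes were kept by filterByExpr (minimum count 10, minimum total 15), which left 16219, and scaled by TMM. Groups were compared with edgeR 4.0.16 in R 4.3.3 (quasi-likelihood test, no covariate, Benjamini-Hochberg over all genes kept). The script was tested on simulated data. CPM uses TMM-scaled library sizes. Depth (19785922 to 23191698 gene counts per library) gave INHBB, the lowest of the 10 genes, 18 to 56 counts per library. DESeq2 1.42.0, limma-voom (3.58.1), other scalings and filters, a replicate block and leaving out tumours were tried.

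The 10 genes and the lists were chosen with earlier results of these data known, so no list is independent evidence. The naming rule took the 10 genes, SMARCA4, the 3 changed genes of smallest p per direction in each list, and the 3 genes most like the gene with the smallest p. Others are said to be named after their values were seen. Positions and exon lengths are from GENCODE 29 (GRCh38), and sequences from RefSeq (GRCh38.p14), in which all 10 genes matched. Motifs were chosen with the windows in view. For a gene with several windows the first was used.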

Additional observations from a re-analysis of the deposited data

Results flagged for a closer look

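Within groups of 4 tumours, 4 of 84 sets of values had 1 tumour far from the other 3 by Dixon's criterion, and chance flags about 5% of such groups. THBS1 was at 166 CPM in parental replicate 4, against 120 to 125 CPM in the other parental tumours. HTRA1 was at 75.6 CPM in parental replicate 3, against 99.1 to 102 CPM. Summed endothelial markers were at 15.8 CPM in knockout replicate 2, against 9.67 to 9.99 CPM in the other knockout tumours. Summed skeletal muscle markers were at 16.5 CPM in knockout replicate 4, against 0.420 to 0.981 CPM. None of the 10 genes had such a tumour in either group.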

How the results depend on the processing

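SMARCA4, TGFBR3, INHBA and FST kept their direction and call in all 17 alternatives. With the replicate block, 3 of the 10 genes were called (3 higher, 0 lower); TGFB3 (edgeR adjusted p = 0.0525) and INHBB (0.0903) were lost. The labels do not say whether same-numbered tumours share more than a number. Their deviations correlated at -0.223 to 0.092, and no tumour correlated best with its own number. That does not settle whether they shared a cage or day. Leaving out 1 tumour gave 3 to 4 called genes of the 10, and 3501 to 4721 of all genes. Over those fits TGFB1 ran from -0.42 to 0.10. It reversed to 0.10 without parental replicate 2, to 0.01 without knockout replicate 4, and to 0.18 without parental replicates 2 and 3, a setting chosen after seeing the data; the cause was not tested. INHA lost its call in 10 of 17 alternatives. INHBB rests on the fewest counts of the 10 genes, 165 and 89.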
